A study of Mus musculus with 24 samples.

Results

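The clustered protocadherins are cell adhesion molecules of the cadherin superfamily, encoded in 3 neighbouring gene clusters, alpha, beta and gamma. Every row of the expression table whose symbol begins with Pcdha, Pcdhb or Pcdhg was taken as a member, which gave 54 members of 15456 genes, with 12 alpha, 21 beta and 21 gamma genes. Messenger RNA was measured by RNA sequencing in the prefrontal cortex of 24 male BALB/C mice at postnatal week 11, in 4 groups of 6. Control mice received neither agent and were gavaged with PBS. Duloxetine mice received this serotonin and norepinephrine reuptake inhibitor by daily intraperitoneal injection, and R. flavefaciens mice received the gut bacterium Ruminococcus flavefaciens by gavage, every day at first and then 2 times a week. The last group received both agents and is called both treatments. No genetic change is named for any group. Mice were housed in groups, and nothing in the labels says which mice shared a cage or a library batch, so cage and treatment cannot be told apart. A mouse is named below by its label (8_4, for example).

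In an alpha or gamma gene, a variable exon with its own promoter, encoding the extracellular, transmembrane and part of the cytoplasmic sequence, is spliced to constant exons that all genes of that cluster share. Beta genes lie between them and have no shared constant exons. Each neuron chooses a few of these promoters, largely at random, through DNA methylation and looping by CTCF and cohesin, and the combination of isoforms on its surface binds only a matching combination on another cell. This is known for self-avoidance of dendrites and axons and for neuronal survival. The type C genes at the 3' ends of the alpha and gamma clusters (Pcdhac1, Pcdhac2, Pcdhgc3, Pcdhgc4 and Pcdhgc5) are regulated apart from the others, and several of them are expressed in most neurons or in glia. In the cerebral cortex, gamma protocadherins are known for dendrite branching, Pcdhgc5 for binding GABA-A receptors, and Pcdhac2 for the spacing of serotonergic axons, which innervate this region.

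On build GRCm38 the alpha cluster spans chr18:36930184-37187661, the beta cluster chr18:37294812-37524479 and the gamma cluster chr18:37661793-37841873, with all genes on the forward strand. The symbols Pcdha4, Pcdhb1 and Pcdhga10, which the annotation also holds, were not analysed here. Values are normalized counts, that is reads per gene divided by a size factor of each mouse. A mouse had between 12811413 and 15607343 reads on genes, of which the members took a median of 0.0563%, and no member was at 0 in any mouse. The table held markers of cortical excitatory neurons at high levels in control mice, with a mean of 25879 normalized counts for Slc17a7, the vesicular glutamate transporter, and 2811 for Tbr1, a transcription factor of deep cortical layers. Bulk tissue holds all cell types together, so fewer cells of a type and less RNA per cell cannot be told apart in any value that follows.

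The 5 type C genes carried 41.2% of all counts on members, and the gamma cluster as a whole 55.0%, against 28.7% for beta and 16.3% for alpha. Levels can be compared between genes only per length, so they are given as mean normalized counts per kilobase (kb) of exon over all 24 mice. Pcdhgc5 was the highest member at 256 per kb, followed by Pcdhac2 at 108 and Pcdhgc3 at 64.4. Pcdhgc4, which is known for the survival of neurons, had 36.9 per kb, and Pcdhac1 had only 9.13. Thus the type C genes were not a uniformly high group. Pcdhac2 alone made up 50.3% of the alpha counts and Pcdhgc5 45.7% of the gamma counts.

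**Figure D1:**
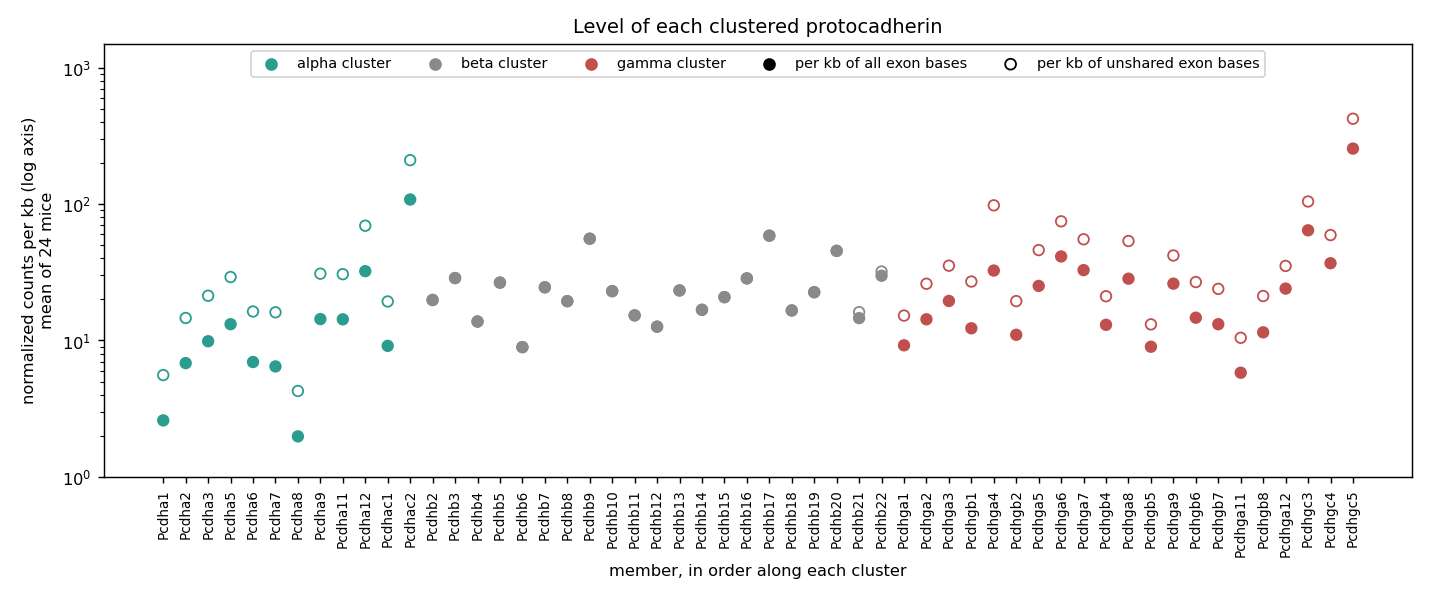
Mean level of each of the 54 members over 24 mice, in normalized counts per kb on a log axis, in the order of the genes along each cluster. Filled points use all exon bases and open points only those that no other gene on the strand covers; Pcdhgc5 (256 and 424 per kb) is the highest on both scales and Pcdha8 (1.98 and 4.26 per kb) the lowest.

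Outside the type C genes, the beta cluster was the most even. Its median was 22.6 per kb, with Pcdhb17 (58.8 per kb), Pcdhb9 (55.8) and Pcdhb20 (45.5) at the top and Pcdhb6 (8.94) at the bottom. The alpha genes that are not type C ran from 1.98 per kb for Pcdha8 to 32.3 for Pcdha12, the variable gene nearest to the type C exons, and Pcdha1, at the far end, had 2.59. The gamma genes that are not type C ran from 5.80 for Pcdhga11 to 41.4 for Pcdhga6. How reads on the shared constant exons were assigned is not given in the sources used here. Since Pcdha8 had a mean of only 10.6 normalized counts, the shared alpha reads were not added to every alpha gene. Per kb of exon that no other gene covers, Pcdhgc5 (424), Pcdhac2 (211) and Pcdhgc3 (105) were again the highest and Pcdha8 (4.26) and Pcdha1 (5.57) the lowest, whereas Pcdhga4, of which most exon sequence is shared, moved up to 98.2. Pcdhb21 and Pcdhb22 overlap at their ends, so reads there can be split between them, and Pcdhgb8 is annotated as a polymorphic pseudogene.

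Mice given R. flavefaciens alone had fewer counts on the clustered protocadherins than control mice, but no single member passed the main test. Summed over all members, control mice had 8046, 8310 and 8568 normalized counts (lowest, median, highest) and R. flavefaciens mice 5843, 7622 and 7932. The 2 groups did not overlap in this sum. The alpha sum was 1413 ± 45.1 in control and 1143 ± 223 in R. flavefaciens mice (SD, n = 6 each), 19.1% lower. The gamma sum was 4603 ± 95.5 and 3995 ± 452, or 13.2% lower, and the beta sum 2298 ± 128 and 2116 ± 156, or 7.90% lower. Over all members the difference was 12.7%. These sums are descriptions, since the members were chosen with earlier results known. With both treatments the sum over all members had a mean of 7498 ± 522, or 9.81% below control, and the alpha sum was 16.0% lower. Of these mice only 12_4 (8201) was above the lowest control mouse. With duloxetine alone the mean was 8001 ± 432, or 3.77% below control. Its mice 6_2 (7307), 6_3 (7712) and 5_3 (8014) were below the lowest control mouse, and its other mice were not.

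**Figure D2:**
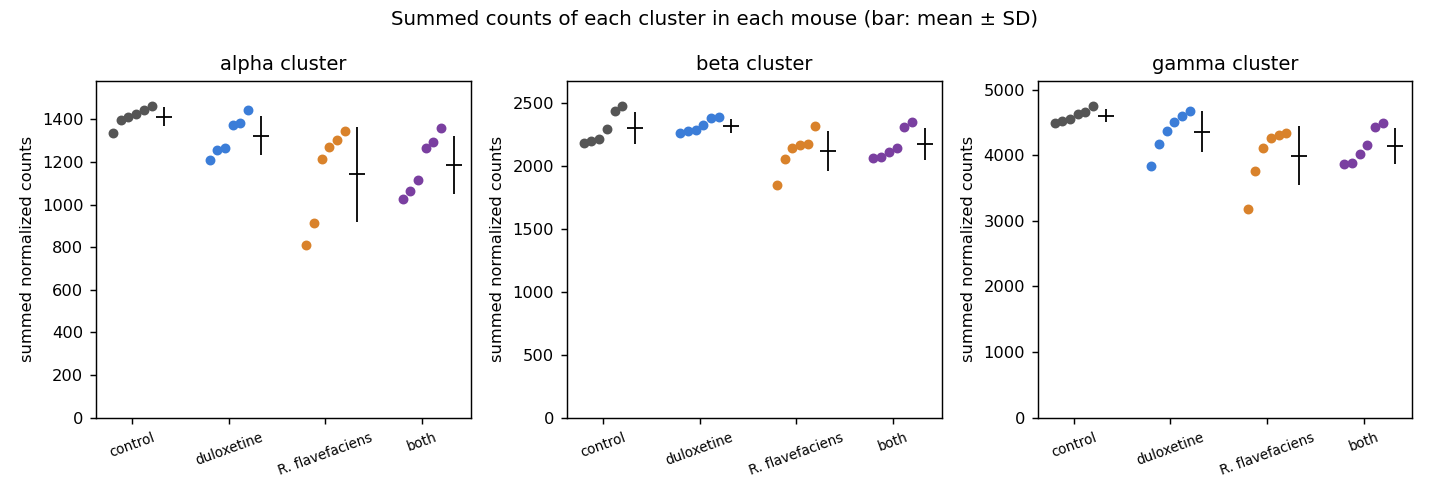
Summed normalized counts of the alpha, beta and gamma clusters in each of 24 mice, with the mean and SD of each group beside the points. The lowest R. flavefaciens mice, 9_3 and 8_4, had 812 and 915 counts on the alpha cluster, below the lowest control mouse at 1335.

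A large part of the difference came from 2 mice. In mouse 9_3, 36 of 54 members were below all 6 control mice, and in mouse 8_4, 29 of 54 were, or 66.7% and 53.7%. The same count over all 14974 genes tested was 30.6% and 26.9% in these mice. The other R. flavefaciens mice had 10 to 20 members below the control range, or 18.5% to 37.0%, where 14.7% to 24.3% of all genes were. Without mice 8_4 and 9_3, a choice made after seeing the data, the remaining 4 R. flavefaciens mice had a mean sum of 7739 ± 161 normalized counts, 6.91% below control, and the alpha sum was 9.20% below control.

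Both mice also stood apart in other genes. Mouse 8_4 had the highest sum of all 24 mice for striatal markers (4690 normalized counts, against at most 1904 in control mice) and for choroid plexus markers (791, against at most 64.2), and the second highest for oligodendrocyte (47200) and inhibitory neuron markers (11745). Its sums for astrocyte (23138) and blood markers (988) were the third highest, and its sum for excitatory neuron markers (94482) was the lowest of all 24. Mouse 9_3 had the second highest sum for microglia markers (4068) and the third highest for inhibitory neuron markers (11455). Choroid plexus markers in the table were Ttr, Kl and Clic6. In mouse 9_3, long genes were lower and short genes higher relative to the control mean than in any other mouse, with a Spearman correlation of -0.511 between exon length and log2 difference across genes that are not members, which is a description across genes that share a library. This value was -0.270 in mouse 8_4, -0.377 in mouse 7_2, between -0.153 and -0.101 in the other R. flavefaciens mice, and between -0.141 and 0.0712 in control mice. The part of tissue composition and of RNA length in the members' values was not tested, apart from the fits with length given below.

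**Figure D3:**
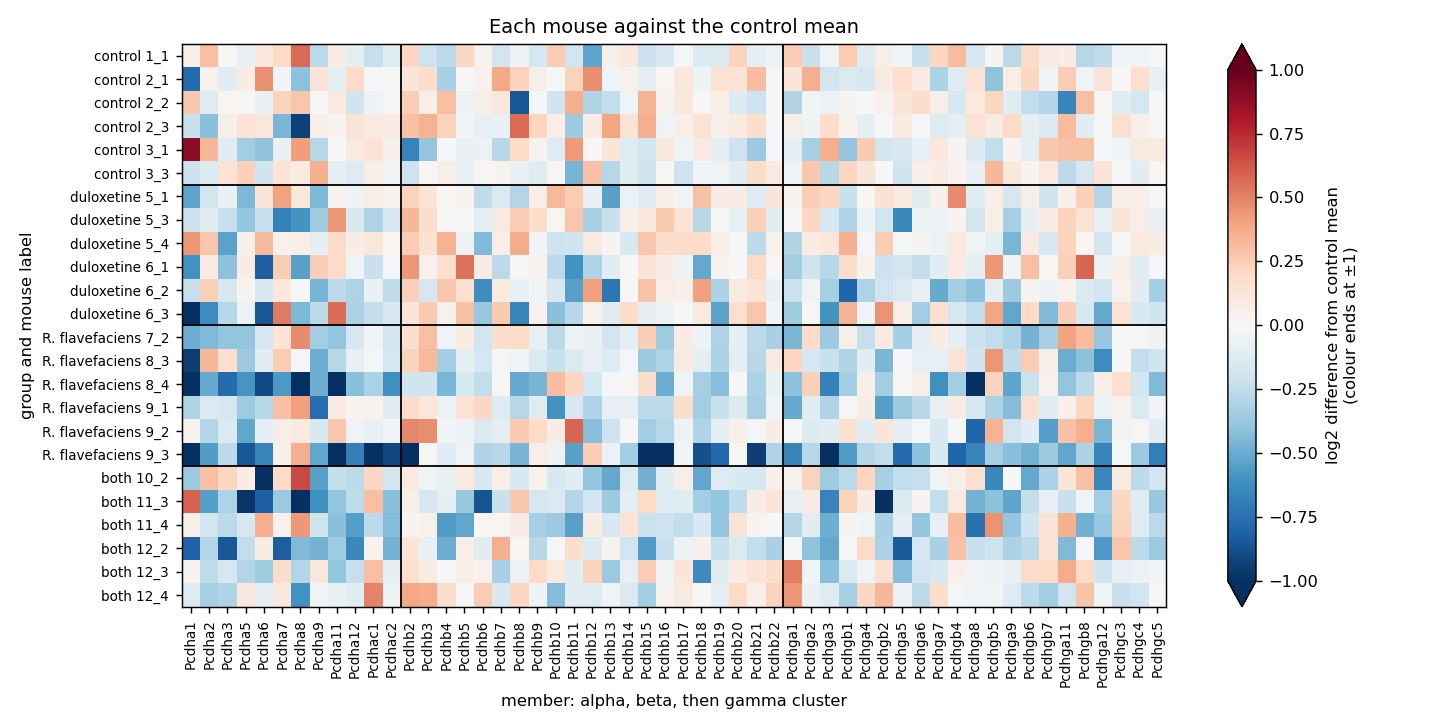
Log2 difference of each member from its control mean in each of 24 mice, on log2(normalized count + 1), with blue below and red above control and the colour scale ending at 1. R. flavefaciens mouse 9_3 is blue in most columns (36 of 54 members below every control mouse), followed by 8_4 (29 of 54), while Pcdhb17 stays within the control range in both.

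Each gene was then tested by limma across all genes and groups, and log2 fold changes are on the log2(normalized count + 1) scale with their standard errors (SE). Between R. flavefaciens and control, 0 of 54 members passed an adjusted p of 0.05, where 4 of all 14974 genes (0.0267%) did. At an unadjusted p of 0.05, 15 of 54 members were lower and 0 higher, or 27.8%, against 10.8% of all genes lower and 8.86% higher. In total 48 of 54 had a negative log2 fold change (49.2% of all genes did), and their median was -0.17, where the median of all genes was 0.003. DESeq2 and edgeR on recovered reads also called 0 members, and had 13 and 14 members lower at an unadjusted p of 0.05. Without mice 8_4 and 9_3 the median was -0.096, with 41 members lower and 7 of them at an unadjusted p of 0.05 (13.0%, against 4.86% of all genes), and 1 member, Pcdhb3, was higher at that p (log2 fold change 0.30, adjusted p = 0.497).

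Pcdhb16 had the smallest p of all members in this comparison. It is a single-exon beta gene (ENSMUSG00000047910.6, chr18:37477814-37483038). Control mice had 143, 161 and 173 normalized counts (lowest, median, highest), duloxetine mice 154, 167 and 191, R. flavefaciens mice 79.4, 126 and 133, and mice with both treatments 137, 147 and 163. Every R. flavefaciens mouse was thus below every mouse of the other groups, while the 3 other groups overlapped. The log2 fold change of R. flavefaciens against control was -0.45 (SE 0.096, limma adjusted p = 0.0687). With the prefix of the mouse label as a random block, Pcdhb16 passed in limma (adjusted p = 0.0390). Among all genes tested, 0.835% were lower with no overlap between these groups. Without mice 8_4 and 9_3 the log2 fold change was -0.30 (adjusted p = 0.317), and without mouse 8_3, 9_1 or 9_2 the adjusted p was between 0.0264 and 0.0459.

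In all, 6 members passed a threshold of 0.1 for the adjusted p, which 3.87% of all genes passed. Of the 5 besides Pcdhb16, Pcdha5, Pcdhga8 and Pcdhb19 are named here after their values were seen. The alpha gene Pcdha5 had 61.5, 79.8 and 92.6 normalized counts in control and 42.7, 57.0 and 61.1 in R. flavefaciens mice. The groups did not overlap, but their ranges lay close, at 61.5 for the lowest control mouse and 61.1 for the highest R. flavefaciens mouse. Its log2 fold change was -0.51 (SE 0.15, adjusted p = 0.0827). Pcdha9, another alpha gene, had 73.1, 91.2 and 115 counts in control and 52.3, 63.4 and 80.3 in R. flavefaciens mice, and its ranges overlapped (log2 fold change -0.46, SE 0.14, adjusted p = 0.0962).

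The other members at this threshold were 2 gamma A genes and a beta gene. Pcdhga8 had 137, 156 and 171 counts in control mice. In R. flavefaciens mice it split, with 68.6, 89.1 and 97.7 counts in mice 8_4, 9_2 and 9_3 and between 133 and 138 in the other 3. Its log2 fold change was -0.53 (SE 0.15, adjusted p = 0.0806). Pcdhga9 had a mean of 170 ± 19.1 in control and 132 ± 11.6 in R. flavefaciens mice (SD, n = 6 each; log2 fold change -0.35, SE 0.099, adjusted p = 0.0795). Its R. flavefaciens mice all lay between 117 and 148, across the lowest control mouse at 140. Pcdhb19 had a mean of 180 ± 13.5 and 142 ± 22.0 (log2 fold change -0.36, SE 0.11, adjusted p = 0.0913).

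**Figure D4:**
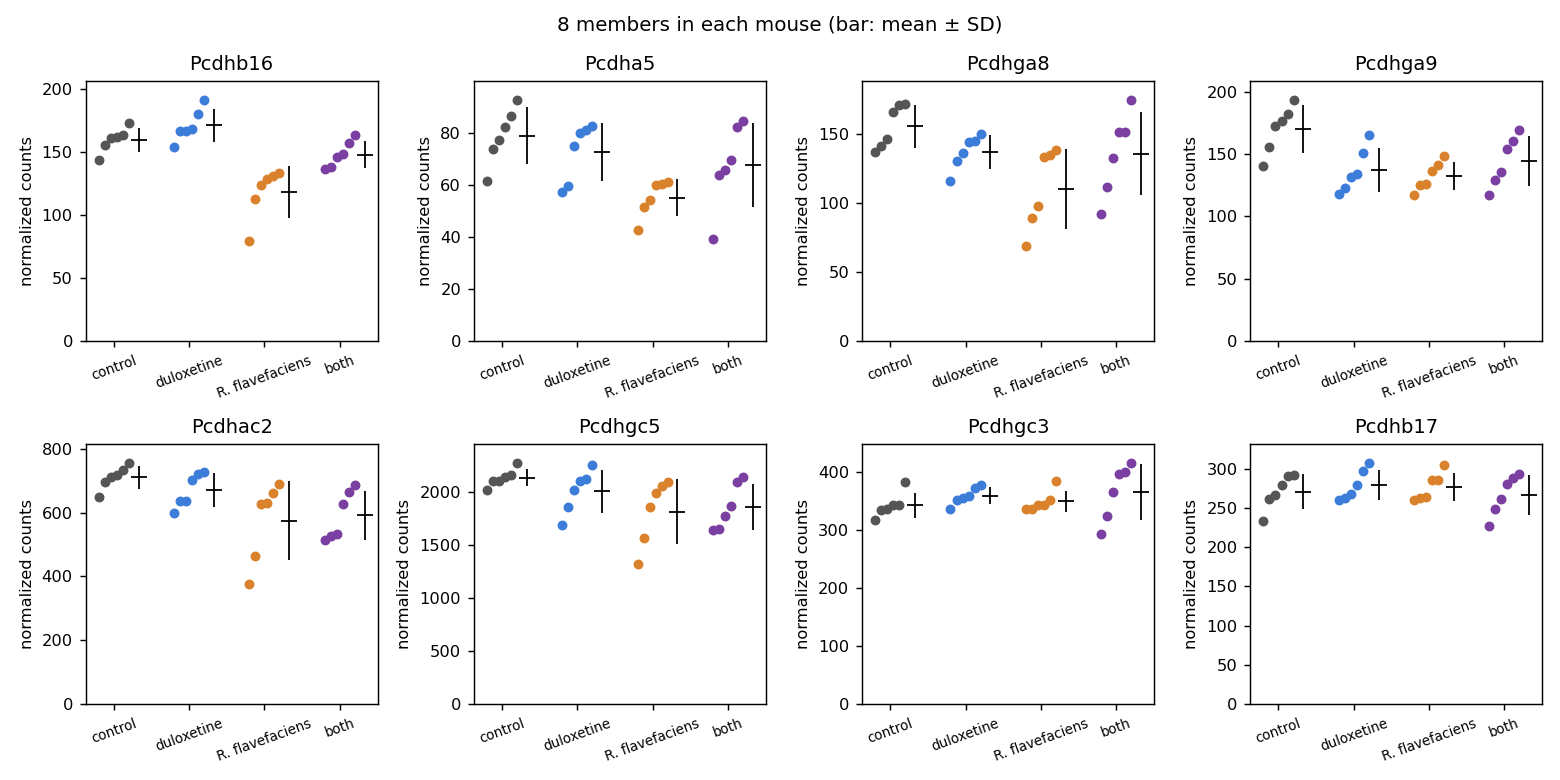
Normalized counts of 8 members in each of 24 mice, with the mean and SD of each group beside the points. R. flavefaciens mice lie below every control mouse for Pcdhb16 (at most 133 against at least 143) and Pcdha5 (at most 61.1 against at least 61.5), and within or across the control range for Pcdhgc3 and Pcdhb17.

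With all mice, none of the 5 type C genes passed the main test between R. flavefaciens and control, and differences between them were not tested. Pcdhac2 had 651, 716 and 757 normalized counts in control and 378, 629 and 690 in R. flavefaciens mice, with a log2 fold change of -0.34 (SE 0.11, adjusted p = 0.103). Pcdhgc5 had 2023, 2123 and 2274 in control and 1324, 1921 and 2089 in R. flavefaciens mice (log2 fold change -0.25, SE 0.091, adjusted p = 0.133). For both genes mice 9_3 and 8_4 were the lowest of all 24 mice, and the other 4 lay close below or inside the control range. Without mouse 9_3 the log2 fold change was -0.22 for Pcdhac2 and -0.17 for Pcdhgc5. Without mouse 9_2, Pcdhac2 was at -0.40 and passed in limma (adjusted p = 0.0427). Over the settings run, the values nearest 0 were those without mice 8_4 and 9_3, at -0.13 for Pcdhac2 and -0.097 for Pcdhgc5. Pcdhgc4 had a log2 fold change of -0.16 (SE 0.074, adjusted p = 0.236) and Pcdhac1 of -0.24 (SE 0.16, adjusted p = 0.396). For Pcdhac1, mouse 9_3 had 23.4 counts and the other R. flavefaciens mice 40.1 to 51.3, beside 42.6 to 55.1 in control, and without mouse 9_3 the value was -0.081. Pcdhgc3, which shares its constant exons with Pcdhgc5, had 318, 339 and 382 counts in control and 336, 344 and 385 in R. flavefaciens mice, and a log2 fold change of 0.03 (SE 0.069, adjusted p = 0.855). The ratio of Pcdhgc5 to Pcdhgc3 counts within a mouse was 6.26 ± 0.498 in control, 5.61 ± 0.703 in duloxetine, 5.21 ± 0.958 in R. flavefaciens and 5.24 ± 1.36 in mice with both treatments (SD, n = 6 each), and these ranges overlapped.

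By cluster, the median log2 fold change of R. flavefaciens against control was -0.30 for alpha, -0.12 for beta and -0.17 for gamma. At an unadjusted p of 0.05, 5 of 12 alpha, 4 of 21 beta and 6 of 21 gamma genes were lower. These were 41.7%, 19.0% and 28.6% of each cluster, against 10.8% of all genes. Within gamma, all 11 gamma A genes had a negative log2 fold change (49.2% of all genes did), with a median of -0.26. Of these, 4 reached that p, or 36.4%. Of the 7 gamma B genes, 6 were negative, with a median of -0.16, and 0 reached it. The difference between clusters or subfamilies was not tested. The largest negative log2 fold change belonged to Pcdha1, at -0.75 (SE 0.30, adjusted p = 0.172), but this gene had a mean of only 17.2 normalized counts in control and 9.92 in R. flavefaciens mice, and its ranges overlapped widely. The largest positive value was that of Pcdhb3, at 0.17 (SE 0.12, adjusted p = 0.466) and 0.09 without control mouse 3_1, and Pcdhb17, the beta gene with the highest level per kb, had 271 ± 22.4 counts in control and 278 ± 17.8 in R. flavefaciens mice (log2 fold change 0.04, SE 0.070).

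**Figure D5:**
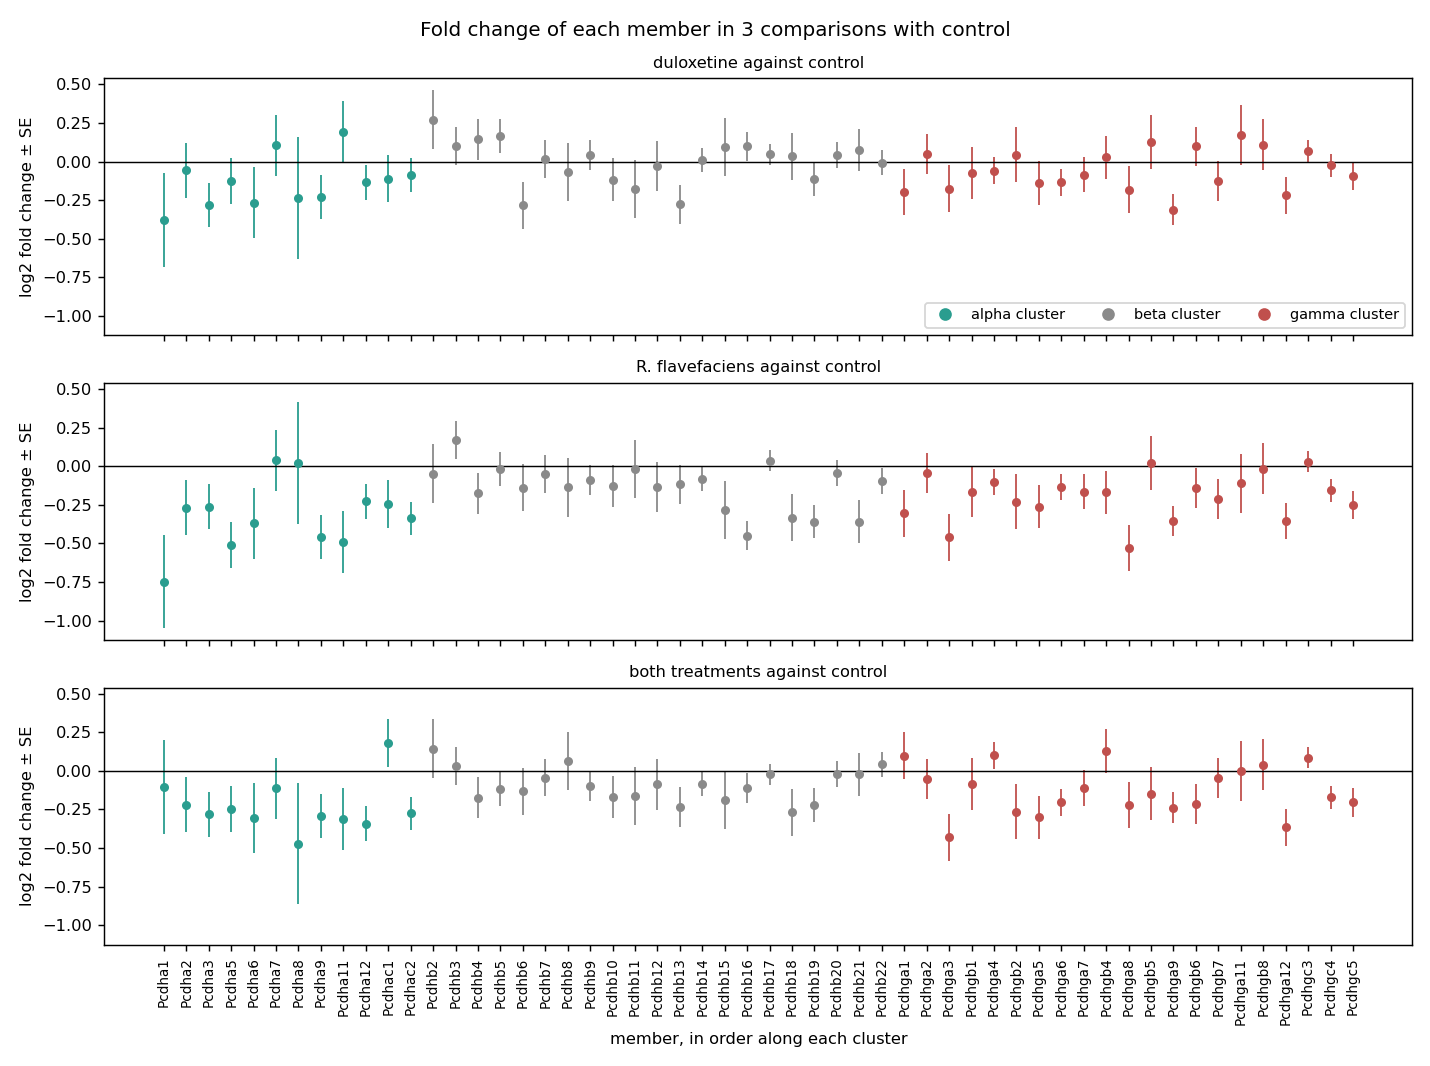
Log2 fold change of each member with its standard error, in the order of the genes along each cluster, for duloxetine, R. flavefaciens and both treatments, each against the same 6 control mice. In the middle panel 48 of 54 points are below 0 with a median of -0.17; in the upper panel 31 and in the lower panel 44 are below 0. No member passed an adjusted p of 0.05 in any panel.

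Members differ from many genes in length, and long genes were lower in several treated mice, so length was examined. The members had 2801 to 8695 exon bases. The 9021 genes in this range had a median log2 fold change of -0.004 for R. flavefaciens against control, and 8.68% of them were lower at an unadjusted p of 0.05. With a smooth trend on length removed from each mouse, the median of the members was -0.17, and 14 were lower at that p. The share of all genes in that fit is not given here, and the 8.68% comes from the fit without this removal.

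With both treatments against control, 0 of 54 members passed an adjusted p of 0.05 (0.1% of all genes did), 44 had a negative log2 fold change (49.8% of all genes), and the median was -0.14. At an unadjusted p of 0.05, 9 members were lower and 0 higher, or 16.7% against 8.73% of all genes. Of these 9, 7 were gamma genes, 2 alpha and 0 beta. This comparison shares its control mice with the previous one, so the values are given side by side and no overlap between them is read. Pcdhga12, the gamma A gene nearest to the type C exons, had the smallest p. Its counts were 156, 186 and 204 in control mice (lowest, median, highest), 130, 163 and 179 in duloxetine, 117, 139 and 193 in R. flavefaciens and 118, 144 and 181 in mice with both treatments. The log2 fold change was -0.37 for both treatments (SE 0.12, adjusted p = 0.141) and -0.36 for R. flavefaciens alone (adjusted p = 0.108). Pcdha12 followed, with 193 ± 21.5 counts in control and 153 ± 21.2 with both treatments (log2 fold change -0.34, SE 0.11, adjusted p = 0.151). Pcdhac2 was at -0.28 (adjusted p = 0.217) and Pcdhgc5 at -0.20 (adjusted p = 0.258). The largest positive value was that of Pcdhac1, at 0.18 (SE 0.16, adjusted p = 0.569) and 0.12 without mouse 12_4, the largest negative one that of Pcdha8, at -0.47 (SE 0.39, adjusted p = 0.555) and -0.048 without mouse 11_3, and Pcdhb16 was at -0.11 (SE 0.096, adjusted p = 0.575).

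With duloxetine alone the alpha sum was 6.40% and the gamma sum 5.27% below control, and the beta sum was 0.875% above it. The test called 0 of 54 members at an adjusted p of 0.05 (0% of all genes), 31 were lower and 23 higher (51% of all genes were lower), and the median was -0.058. With single mice left out it lay between -0.080 and -0.026, the latter without mouse 6_2, and with a minimum mean of 50 it was -0.016. At an unadjusted p of 0.05, 2 members were lower, or 3.70%, against 1.63% of all genes, and 0 were higher. These were Pcdhga9, with 137 ± 17.8 normalized counts against 170 ± 19.1 in control (log2 fold change -0.31, SE 0.099, limma adjusted p = 1.00), and Pcdhb13, at -0.28 (SE 0.13, adjusted p = 1.00). The alpha genes had a median of -0.13, with 10 of 12 lower, and the beta genes a median of 0.03. The largest values in either direction were -0.38 for Pcdha1 (SE 0.30, adjusted p = 1.00) and 0.27 for Pcdhb2 (SE 0.19, adjusted p = 1.00), which were -0.20 and 0.14 without control mouse 3_1.

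Adding duloxetine to R. flavefaciens gave 0 members past an adjusted p of 0.05, where 334 genes (2.23%) passed. Pcdhb16 came nearest, at a log2 fold change of 0.34 (SE 0.096, adjusted p = 0.0555). It passed with the label prefix as block (adjusted p = 0.0371), under DESeq2 (0.0324), with 75th percentile rescaling (0.0384) and with a minimum mean of 50 (0.0487). The count of 0 members held in 7 of 12 other settings, an adjusted p of 0.1 being 1 of the 12. Without mice 8_4 and 9_3, 0 members passed an adjusted p of 0.05, where 305 of 14974 genes passed as higher and 156 as lower. Every mouse with both treatments (at least 137 counts) was above every R. flavefaciens mouse (at most 133), which held for 0.614% of all genes in this direction. These R. flavefaciens mice are also those that were low for Pcdhb16 against control. The comparisons share them, as do the averaged comparisons below, so the values of Pcdhb16 are not independent. At an unadjusted p of 0.05, 8 members were higher and 0 lower, or 14.8% against 9.76% of all genes higher. Besides Pcdhb16, these included Pcdhac1, with 43.5 ± 10.6 counts in R. flavefaciens mice and 57.6 ± 10.1 with both treatments (log2 fold change 0.42, adjusted p = 0.133, and 0.26 without mouse 9_3), and Pcdhga1, with 42.9 ± 10.7 and 57.0 ± 12.8 (log2 fold change 0.40, adjusted p = 0.141). The largest values were 0.64 for Pcdha1 (SE 0.30, adjusted p = 0.239) and -0.49 for Pcdha8 (SE 0.39, adjusted p = 0.517), both with few counts, and the latter was -0.071 without mouse 11_3. The direction over the members turned when mouse 9_3 was left out, however. The median was 0.049 with all mice, -0.021 without mouse 9_3 and -0.060 without mice 8_4 and 9_3, when 2 members were higher and 2 lower at that p.

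Adding R. flavefaciens to duloxetine gave 0 members past an adjusted p of 0.05 (0% of all genes) and 40 of 54 with a negative log2 fold change (51.2% of all genes), with a median of -0.081. At an unadjusted p of 0.05, 5 members were lower and 0 higher, or 9.26% against 2.88% of all genes. Pcdha11 had the smallest p, with 95.2 ± 18.9 counts in duloxetine mice and 66.0 ± 6.47 with both treatments (log2 fold change -0.50, SE 0.20, adjusted p = 0.816), which was also the largest negative value, and Pcdhga1 had the largest positive one, at 0.30 (SE 0.15, adjusted p = 0.818). With R. flavefaciens averaged over duloxetine, which sets 12 mice against 12, 49 of 54 members were negative (48.8% of all genes), 19 were lower at an unadjusted p of 0.05 (35.2%, against 10.4% of all genes), and 0 passed an adjusted p of 0.05 (0.0267% of all genes). Pcdhb16 was at -0.33 (SE 0.068, adjusted p = 0.0891), Pcdha11 at -0.50 (SE 0.14, adjusted p = 0.109) and Pcdhac2 at -0.26 (SE 0.077, adjusted p = 0.111), while the largest positive value was 0.05 for Pcdhb3 (SE 0.086), or 0.012 without control mouse 3_1. With duloxetine averaged over R. flavefaciens the median was 0.011, and 0 members passed (1.03% of all genes). Pcdhb16 had the smallest p, at 0.22 (SE 0.068, adjusted p = 0.110), and the largest values were 0.23 for Pcdhb2 (SE 0.14), or 0.12 without mouse 9_3, and -0.37 for Pcdha8 (SE 0.28), or -0.15 without mouse 11_3.

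The interaction asks whether R. flavefaciens acted differently with and without duloxetine. None of the 54 members passed by limma at an adjusted p of 0.05 (0% of all genes), the lowest adjusted p being 0.639, and 6 members had an unadjusted p under 0.05, all positive, or 11.1% against 3.86% of all genes. These were Pcdhga9, Pcdhga1, Pcdhac1, Pcdha1, Pcdhga8 and Pcdhga4. Pcdhga9 had the smallest p, with an interaction of 0.43 (SE 0.14), since its mean was 170 counts in control and between 132 and 144 in the 3 other groups. The largest values were 1.02 for Pcdha1 (SE 0.43, adjusted p = 0.639) and -0.30 for Pcdhgb5 (SE 0.24, adjusted p = 0.751), the latter -0.20 without mouse 10_2. The median over members was 0.089 with all mice, 0.042 without mouse 9_3 and 0.007 without mice 8_4 and 9_3.

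Members varied together across mice to a modest degree. With group means removed, the median Pearson correlation over 1431 pairs of members across 24 mice was 0.142, against -0.002 over all pairs of tested genes, and it was 0.232 among alpha genes, 0.10 among beta genes and 0.123 among gamma genes. The highest was 0.923 for Pcdhac2 with Pcdhgc5, followed by 0.859 for Pcdha12 with Pcdhac2. Without mice 8_4 and 9_3 these were 0.869 and 0.789, and the median over pairs was 0.101. These values are descriptions, since mice share libraries and depth across all pairs, and in low members counting error lowers the correlation.

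Other genes around the clustered protocadherins were read from lists. Between R. flavefaciens and control, 0 genes of these lists passed an adjusted p of 0.05. Of 12 non-clustered protocadherins, which are single genes elsewhere in the genome, 10 were lower (49.2% of all genes were), with a median of -0.15, and 6 were lower and 0 higher at an unadjusted p of 0.05, which 10.8% of all genes reached as lower and 8.86% as higher. Among them Pcdh19, an adhesion molecule of which the human gene is linked to epilepsy, was at -0.27 (SE 0.077, adjusted p = 0.0806) and Pcdh10, the most abundant of the list, at -0.24 (SE 0.068, adjusted p = 0.0806). Their summed counts were 23459 ± 503 in control and 20901 ± 2236 in R. flavefaciens mice (SD, n = 6 each), and mice 9_3 and 8_4 again had the lowest sums of all 24. Against R. flavefaciens alone, Pcdh15 was higher with both treatments, with 308 ± 41.8 and 396 ± 31.0 counts (log2 fold change 0.37, SE 0.089, adjusted p = 0.0294), the only gene of this list to pass in that comparison.

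Of 20 measured regulators of promoter choice and chromatin, 15 were lower between R. flavefaciens and control, with a median of -0.051, and 2 were lower and 0 higher at an unadjusted p of 0.05, a share of lower genes near the 10.8% of all genes. Among these 2 was Pds5b, a cohesin cofactor, at -0.18 (SE 0.063, adjusted p = 0.128). Ctcf, which binds the promoters and enhancers of the clusters, had 971 ± 29.2 counts in control and 952 ± 61.5 in R. flavefaciens mice (log2 fold change -0.03, SE 0.043, adjusted p = 0.741). Rad21, a cohesin subunit, was at -0.07 (adjusted p = 0.440), Dnmt3a, a DNA methyltransferase, at -0.11 (adjusted p = 0.365), and Smchd1, a repressor of the clusters, at -0.08 (adjusted p = 0.557).

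Of 20 cytoplasmic partners and WAVE complex genes, through which protocadherins act on the actin cytoskeleton, 14 were lower, with a median of -0.032. At an unadjusted p of 0.05, 3 were lower and 1 higher, where 10.8% of all genes were lower and 8.86% higher. The higher gene was Brk1, a small WAVE subunit, at 0.20 (SE 0.050, adjusted p = 0.0727), and Cyfip2, a large one, was at -0.21 (SE 0.075, adjusted p = 0.132). Of the 7 genes of proteolytic processing, which cut protocadherins at the membrane, 3 were lower and 4 higher. Adam10, the ectodomain protease, was at -0.12 (adjusted p = 0.178) and Psenen, a gamma-secretase subunit, at 0.24 (adjusted p = 0.103). Of 6 synaptic binding partners, 5 were lower. Gabrb2, a GABA-A receptor subunit, was at -0.52 (SE 0.16, adjusted p = 0.0938), and Nlgn3, a postsynaptic neuroligin, was the only higher gene, at 0.13 (SE 0.042, adjusted p = 0.0980).

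Markers of cell types were read in the same comparison. Between R. flavefaciens and control, 0 marker genes passed an adjusted p of 0.05, and 4 of 6 excitatory neuron markers were lower (median log2 fold change -0.039), 5 of 7 inhibitory neuron markers were higher (0.10), as were 7 of 7 oligodendrocyte (0.13), 6 of 6 microglia (0.14), 5 of 6 astrocyte (0.14), 5 of 6 endothelial and pericyte (0.084) and 5 of 5 blood markers (0.75). Higher at an unadjusted p of 0.05, which 8.86% of all genes reached, were 4 of 5 blood, 3 of 6 microglia, 3 of 7 inhibitory neuron, 1 of 6 astrocyte, 1 of 6 excitatory neuron and 1 of 3 choroid plexus markers and Slc18a2, while 1 of 6 excitatory neuron markers was lower at that p. The summed astrocyte markers, with Aldoc as the most abundant, were 18803 ± 1158 in control and 20728 ± 1748 in R. flavefaciens mice. The summed oligodendrocyte markers, with Mbp as the most abundant, were 26152 ± 8087 and 31619 ± 14932, and they overlapped. Microglia markers, led by Csf1r, were 3300 ± 166 and 3673 ± 263, and excitatory neuron markers, led by Camk2a, 101553 ± 3644 and 103086 ± 6454. Inhibitory neuron markers, led by Gad1, were 10375 ± 478 and 11244 ± 376, and blood markers, led by Hbb-bs, 349 ± 65.7 and 598 ± 204. Striatal markers, led by Ppp1r1b, were 1468 ± 239 and 1953 ± 1371, and choroid plexus markers, led by Kl, 51.9 ± 10.1 and 191 ± 296, with both of the large SDs set by mouse 8_4. Of 4 serotonin neuron markers only Slc18a2, the vesicular monoamine transporter, was analysed here, at 72.6 ± 15.3 and 91.1 ± 8.71 counts. With both treatments against control, 0 marker genes passed an adjusted p of 0.05. At an unadjusted p of 0.05, 5 of 5 blood markers (median log2 fold change 0.78), 4 of 6 microglia (0.19) and 3 of 6 astrocyte markers (0.17) were higher. So were 2 of 6 endothelial and pericyte (0.15), 1 of 7 inhibitory neuron (0.038) and 1 of 3 choroid plexus markers (0.55). Of all genes, 8.08% reached that p as higher. With duloxetine alone against control, 5 of 6 microglia markers were higher and 1 lower (median 0.18), and 4 were higher at an unadjusted p of 0.05. The share of all genes higher at that p is not given here. Higher were also 7 of 7 oligodendrocyte (0.083), 6 of 6 astrocyte (0.058) and 5 of 5 blood markers (0.30), 0 of them at that p. Of the other lists, 6 of 6 striatal and 5 of 7 inhibitory neuron markers were lower. The mice with both treatments that had the lowest sums over all members, 12_2 (6997 normalized counts) and 11_3 (7005), were the highest and second highest of all 24 for astrocyte markers (25719 and 23571) and for endothelial and pericyte markers (6179 and 5660). They were the highest and the third highest for microglia markers (4596 and 4067), and the second highest and highest for blood markers (1062 and 1090). For excitatory neuron markers the same mice were not low, at rank 2 and rank 11 from the highest (111601 and 102608). The part of these markers in the lower counts of the protocadherins was not tested.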

How the data were processed

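RNA from the prefrontal cortex of 6 mice in each of 4 groups was sequenced. The authors aligned reads with TopHat2 2.1.0 and Bowtie2 2.2.6 and deposited counts divided by DESeq2 1.18.1 size factors, a signal that is not a whole number. The counting program, its use of strand and the filter on genes are not given in the sources used here; antisense reads cannot be told apart. The submitters' notes name mm9, but the methods and all 54 member positions follow GRCm38, and exon lengths come from its GENCODE vM21 annotation. At least 99.97% of values per mouse were whole multiples of 1 read's worth (tolerance 0.0051 reads), so reads were recovered.

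The main test was limma 3.58.1 (trend, all 4 groups in 1 fit, two-sided, Benjamini-Hochberg) on log2(value + 1) over 14974 genes with a mean of at least 10; all 54 members passed this filter. Since values are not counts, DESeq2 1.42.0 and edgeR 4.0.16 (R 4.3.3) were run on recovered reads as alternatives. Other alternatives changed the pseudocount to 0.1, dropped the filter, raised it to 50, or used only the groups compared, quantile and 75th percentile rescaling, removal of a loess trend on length (span 0.3), the prefix of the mouse label as a random block, an adjusted p of 0.1, and leaving out each mouse. The scripts were tested on simulated data. Members, lists and the rule for named genes were chosen with earlier results of these data known. The rule named type C genes, the 3 highest and the lowest per length in each cluster, and in each comparison the smallest p and the largest change in either direction, and in each other list the smallest p for R. flavefaciens against control; others are said to be named after their values were seen or come from the groups described. Nothing says that mice came from separate cages, so p-values measure the spread between these mice. The value of 1 gene that the rule names in the lists is not reported here.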

Additional observations from a re-analysis of the deposited data

Results flagged for a closer look

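Each of the 54 members, the sum of each cluster and the sum over all members were examined in each group of 6 mice for a mouse whose gap to its nearest neighbour was large for the group's whole range by Dixon's 95% critical value, which chance passes in about 1 of 20 groups. It was passed in 10 of 232 groups. In control mice, mouse 1_1 stood out as the highest for Pcdhb5, with 107 normalized counts where the other 5 had 87.9 to 93.3, and for Pcdhgb4, with 93.5 against 66.8 to 76.8. In duloxetine mice, mouse 6_2 was the lowest for Pcdhga4, with 125 against 149 to 159. In R. flavefaciens mice, mouse 8_4 was the highest for Pcdhgc3, with 385 against 336 to 352, and the lowest for Pcdha7, with 22.15 against 34.6 to 41.4. In the same group mouse 9_3 was the lowest for Pcdhb14, with 118 against 141 to 151, and mouse 9_1 the highest for Pcdhb6, with 42.4 against 29.5 to 32.9. With both treatments, the highest mouse stood out for Pcdha2 (10_2, 48.7 against 26.6 to 34.4), for Pcdhb2 (12_4, 67.0 against 52.1 to 57.1) and for Pcdhb14 (11_4, 166 against 131 to 141).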

How the results depend on the processing

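Under 11 other settings and with each of 24 mice left out in turn, the median log2 fold change of members for R. flavefaciens against control stayed between -0.186 and -0.096, or -0.204 and -0.126 with single mice left out. Calls at an adjusted p of 0.05 depended more on the setting. For R. flavefaciens against control, the main count of 0 members became 1 with the label prefix as block (Pcdhb16), 6 at an adjusted p of 0.1, and 0 to 5 with single mice left out (2, 2 and 5 without mice 8_3, 9_1 and 9_2). For both treatments against R. flavefaciens it became 1 (Pcdhb16) under the 75th percentile, the block, DESeq2, the minimum mean of 50 and an adjusted p of 0.1, and 0 to 1 with single mice left out. For R. flavefaciens averaged over duloxetine it became 1 under DESeq2 (Pcdhac2) and at an adjusted p of 0.1 (Pcdhb16), and 0 to 2 with single mice left out. Members lower at an unadjusted p of 0.05 for R. flavefaciens against control numbered 11 to 19 with single mice left out. Without both mice 8_4 and 9_3, chosen after seeing the data, they numbered 7, the median of both treatments against R. flavefaciens turned to -0.060, and both treatments against control called 2 members (Pcdhac2 and Pcdha12). The median of both treatments against R. flavefaciens also turned to -0.014 under quantile normalization and to -0.021 without mouse 9_3, and was between -0.021 and 0.075 with single mice left out. With single mice left out, the median lay between 0.042 and 0.136 for the interaction and between -0.012 and 0.022 for duloxetine averaged over R. flavefaciens. In the other comparisons 0 members were called under every setting run. The cause of these differences was not tested. No paired analysis was possible because the mouse labels do not pair mice across groups. Depth limits the low members: Pcdha8 and Pcdha1 had means of 10.6 and 13.9 normalized counts, and their fold changes have the largest standard errors.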
